A study of Danio rerio with 7 samples.

Results

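The 7 genes described here are tmsb4x, tubb4b, TAGLN (ENSDARG00000045408), ANXA2 (ENSDARG00000003216), krt8, krt18a.1 and marcksl1b, chosen by name as genes of the non-muscle cytoskeleton and of dedifferentiation among 16394 genes in the deposited tables. They were chosen with earlier results of these data known. The cells came from ventricles of adult zebrafish 7 days after cryoinjury, a freezing injury that the zebrafish heart repairs. They carried the transgene nppa:mCitrine, a reporter driven by the promoter of the natriuretic peptide gene nppa, and were sorted for high reporter signal, 1 cell to a well, so cells with little reporter are not represented. The sorting text of the labels names mCherry rather than mCitrine. Wild-type cells were hmga1a+/+ and mutant cells hmga1a-/-, from 12 hearts of each genotype, on 3 wild-type and 4 mutant plates of 384 wells. The labels state 768 cells for each genotype and a wild-type plate lost in sequencing, which matches neither the 1152 wild-type nor the 1536 mutant wells in the files. The plates cannot be traced to animals from the labels, so p-values over plates measure the spread between plates.

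Thymosin beta 4, the product of tmsb4x, binds actin monomers and keeps them from joining filaments, and tubb4b encodes a beta-tubulin of microtubules. Transgelin, from TAGLN, is an actin-binding protein best known from smooth muscle, and annexin A2 binds membranes and actin in response to calcium. Keratins 8 and 18, from krt8 and krt18a.1, pair into the intermediate filaments of simple epithelia, and MARCKS-like proteins such as the product of marcksl1b link the membrane to actin. These roles are known mainly from mammals. When cardiomyocytes lose part of their sarcomeres after injury, non-muscle cytoskeletal genes are often expressed, and the same genes are common in epicardial cells, fibroblasts and blood cells.

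Wells with at least 1000 transcripts outside spike-in and mitochondrial genes numbered 1033 of 2688. Of these, 952 held at least 2% transcripts of MYL7 (ENSDARG00000019096), the atrial myosin light chain gene that marks all cardiomyocytes in zebrafish, and are called MYL7-high. The other 81 are called MYL7-low. Their median depths were alike, 2345 and 2307 transcripts, but the median mitochondrial share was 1.34% in MYL7-high and 24.9% in MYL7-low wells. The boundary cut through few wells, with 12 between 1.5 and 2% and 10 between 2 and 2.5%. Cardiomyocyte markers summed to between 1778 and 2159 transcripts per 10000 in MYL7-high wells of every plate and to between 121 and 456 in MYL7-low wells, so MYL7-low wells also held cardiomyocyte transcripts. That list includes MYL7, which gave 661 of 2004 per 10000 over all MYL7-high and 88.5 of 326 over all MYL7-low wells. Part of the difference between the classes therefore follows from the boundary itself. Plates held between 280361 and 774838 transcripts, and each contributed 77 to 193 MYL7-high and 7 to 23 MYL7-low wells. Wild-type plate 1 and mutant plates 1 and 2 were sequenced in run 1 and the others in run 2. In MYL7-high wells the targeted gene hmga1a stood at 0.46, 1.25 and 0.87 per 10000 on the wild-type plates and at 0.61, 0.54, 0.099 and 0.39 on the mutant plates. The genotypes overlapped, with a log2 fold change of -1.36 (SE 0.50, edgeR adjusted p = 0.151). The position of the mutation in hmga1a is not described in the labels.

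Levels below are transcripts per 10000 nuclear-encoded transcripts summed over the wells of a class on a plate. Each transcript was counted once by its 3′ tag, so levels of different genes can be set side by side without a length correction. In MYL7-high wells tubb4b stood at 5.29 ± 2.73 and tmsb4x at 4.29 ± 1.87 (mean and SD, n = 7 plates). TAGLN followed at 1.43 ± 1.12, ANXA2 at 0.868 ± 0.731 and krt8 at 0.436 ± 0.247. At the bottom, krt18a.1 stood at 0.0895 ± 0.146 and marcksl1b at 0.0865 ± 0.185. Neighbours in this order differed by less than the larger of their SDs, except that tmsb4x lay above TAGLN, and krt8 above krt18a.1, by more. A tubb4b transcript was found in 41.8% of MYL7-high wells and a tmsb4x transcript in 33.5%. The shares were 10.4% for TAGLN, 5.88% for krt8, 5.04% for ANXA2, 1.26% for krt18a.1 and 0.735% for marcksl1b. No class of wells here is known to lack these genes, so a level for free RNA cannot be set. Among wells with tmsb4x, 146 of 319 held a single transcript, and so did 169 of 398 wells with tubb4b.

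The genes differed in how their transcripts were spread over wells. Transcripts of krt18a.1, krt8 and marcksl1b lay almost wholly in a few wells, most of them MYL7-low, and tubb4b was spread over 419. MYL7-low wells, 7.84% of kept wells, held 95.9% of all krt18a.1, 88.1% of krt8 and 80.1% of marcksl1b transcripts. They held 51.4% of ANXA2, 44.2% of tmsb4x and 37.4% of TAGLN transcripts, and 10.8% of those of tubb4b. The 10 richest wells held 97.5% of marcksl1b, 97.3% of krt18a.1 and 87.9% of krt8 transcripts, against 69.1% for ANXA2, 57.3% for TAGLN, 50.5% for tmsb4x and 20.5% for tubb4b. A single well held 54.5% of all krt18a.1 transcripts, 32.96% of ANXA2 and 31.6% of krt8.

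**Figure D1:**
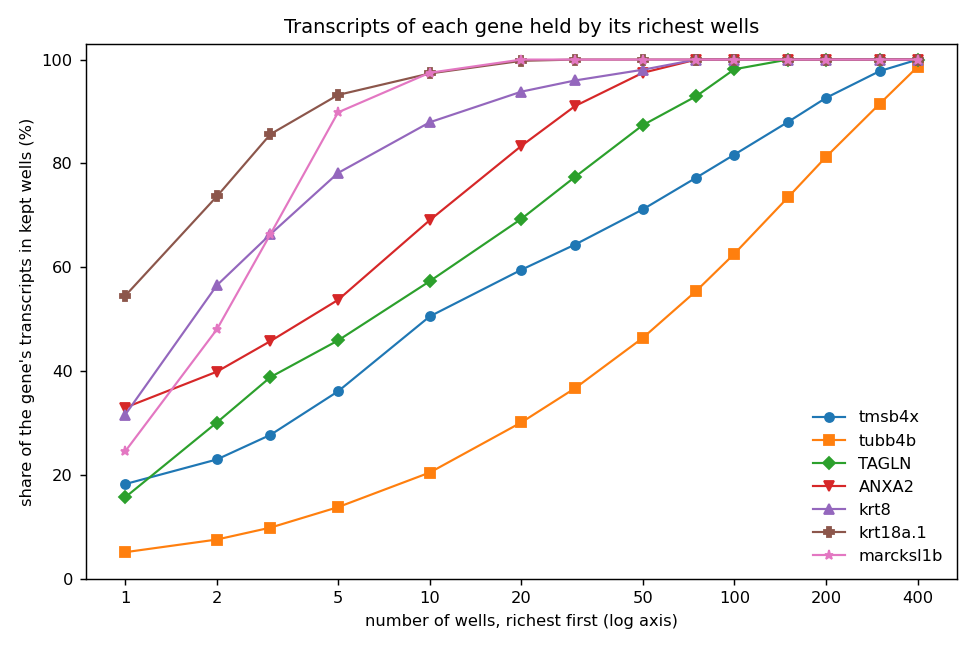
Cumulative share of each gene's transcripts (%) against the number of kept wells, counted from the gene's richest well on a log axis, over all 1033 kept wells. The curves of krt18a.1, marcksl1b and krt8 reach 87.9 to 97.5% with 10 wells, where tubb4b has reached 20.5%.

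The single wells behind these shares differed in what else they held. The richest of all, on wild-type plate 3, had 23836 transcripts with 0.352% MYL7, and the 7 genes made up 4.82% of them. It held 354 transcripts of tmsb4x, 337 of krt8, 224 of krt18a.1, 129 of ANXA2 and 75.7 of TAGLN. Beside them it held 200.2 transcripts of the epicardium and fibroblast marker list, 130.03 of them from the collagen gene COL1A1, and 469 of the cardiomyocyte list. The second, on wild-type plate 1, had 30271 transcripts, 266 of krt8, 78.7 of krt18a.1 and 69.6 of TAGLN. That well held 2050 transcripts of the cardiomyocyte list, 3.0 of the epicardium and fibroblast list and none of the leukocyte list.

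The wells with most marcksl1b also held transcripts of the leukocyte list. On mutant plate 1, a MYL7-low well with 46.3 marcksl1b and 92.01 tmsb4x transcripts held 634 transcripts of the leukocyte list, 476 of them from cd74a, the invariant chain of antigen presentation. That well held 70.6 krt8 and 17.03 krt18a.1 transcripts as well. Another on that plate with 48.3 marcksl1b transcripts held 139.9 of the leukocyte list and 37.2 of krt8. A MYL7-low well of wild-type plate 1 held 36.2 marcksl1b transcripts beside 50.1 of the leukocyte list. On wild-type plate 2, a MYL7-high well with 33.1 marcksl1b and 92.01 tmsb4x transcripts held 118 of the leukocyte list. That 1 well gave 33.1 of the 39.1 marcksl1b transcripts in all 952 MYL7-high wells. In the order given, these wells rich in marcksl1b also held 322, 510, 68.1 and 593 transcripts of the cardiomyocyte list. Of the endocardium and endothelium list they held 19.04, 12.02, 7.0 and 13.01. These are single wells and carry no test.

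Most marker lists of other cell types reached higher sums in MYL7-low wells, though not on every plate. The leukocyte list summed to 0 to 75.1 per 10000 over plates in MYL7-low wells, with 16 of 16 matched genes detected, and to 0.0398 to 1.90 in MYL7-high wells, with 12 of 16. The 75.1, on mutant plate 1, came mostly from the wells of that plate described above. The epicardium and fibroblast list summed to 0 to 38.3 and to 1.05 to 2.11, with 14 of 14 and 7 of 14 detected. The 38.3, on wild-type plate 3, came almost wholly from the richest well described above. In MYL7-high wells the epicardial genes TBX18, wt1b and ALDH1A2 were at 0, and podxl gave 441 of the 468 transcripts of the list. The endocardium and endothelium list summed to 0 to 8.32 and to 0.0163 to 0.454, with 9 and 8 of 10 detected. The smooth muscle and mural list was not higher, at 2.01 per 10000 over all MYL7-low and 2.27 over all MYL7-high wells. Over plates it summed to 0 to 4.45 and to 0.835 to 5.47. The gene acta2 gave 12.0 of its 62.01 transcripts in MYL7-low and 651 of its 658 in MYL7-high wells. A second gene listed as TAGLN, ENSDARG00000033466, is not among the 7 genes and gave 26.01 and 3.0 of them. The part of these cell types in the levels of the 7 genes was not tested.

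Plate by plate, the keratins stood higher in MYL7-low wells on 5 of 7 plates. In MYL7-low wells krt8 stood at 53.8, 0 and 63.9 per 10000 on the wild-type plates and at 19.1, 32.2, 0 and 6.02 on the mutant plates. In MYL7-high wells of the same plates it stood at 0.62, 0.68 and 0.41, and at 0.39, 0.67, 0.28 and 0. On 5 plates krt8 was far higher in MYL7-low wells, and on wild-type plate 2 and mutant plate 3 those wells held none. For krt18a.1 the MYL7-low levels were 15.8, 0 and 42.4 on wild-type and 3.54, 14.6, 0 and 0.90 on mutant plates, against at most 0.41 in MYL7-high wells of any plate. It was therefore found in MYL7-low wells on the same 5 plates as krt8. For marcksl1b the MYL7-low levels were 7.07, 0 and 4.36 on wild-type and 9.31, 0, 0 and 0.30 on mutant plates. Its MYL7-high levels were 0, 0.50 and 0.016, and 0.091, 0, 0 and 0. Where krt8 or marcksl1b had a count of 0 in the 7 to 9 MYL7-low wells of a plate, it allows a level of up to 0.891 to 2.32 per 10000, for counting error only.

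In MYL7-low wells tmsb4x stood at 43.6, 1.95 and 71.9 per 10000 on the wild-type plates and at 21.5, 4.16, 0 and 3.61 on the mutant plates. Its MYL7-high levels were 6.76, 3.48 and 2.73, and 6.08, 5.79, 2.05 and 3.17. It was higher in MYL7-low wells on 4 of 7 plates. TAGLN stood at 13.6, 2.92 and 14.5 in MYL7-low wells of wild-type plates and at 2.39, 0.30, 0 and 0.60 on mutant plates. Its MYL7-high levels were 3.24, 0.53 and 0.28, and 2.21, 2.20, 0.74 and 0.78, so the higher class changed from plate to plate. ANXA2 stood at 4.11, 1.95 and 24.4, and at 3.54, 2.68, 0 and 0.30 in MYL7-low wells. Its MYL7-high levels were 0.72, 0.11 and 0.13, and 1.55, 2.11, 0.82 and 0.63, lower on 5 of 7 plates. For tubb4b the MYL7-low levels of 5.09, 0.49 and 4.17, and 6.60, 8.03, 0 and 1.81, exceeded the MYL7-high level on 1 plate only, wild-type plate 3.

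**Figure D2:**
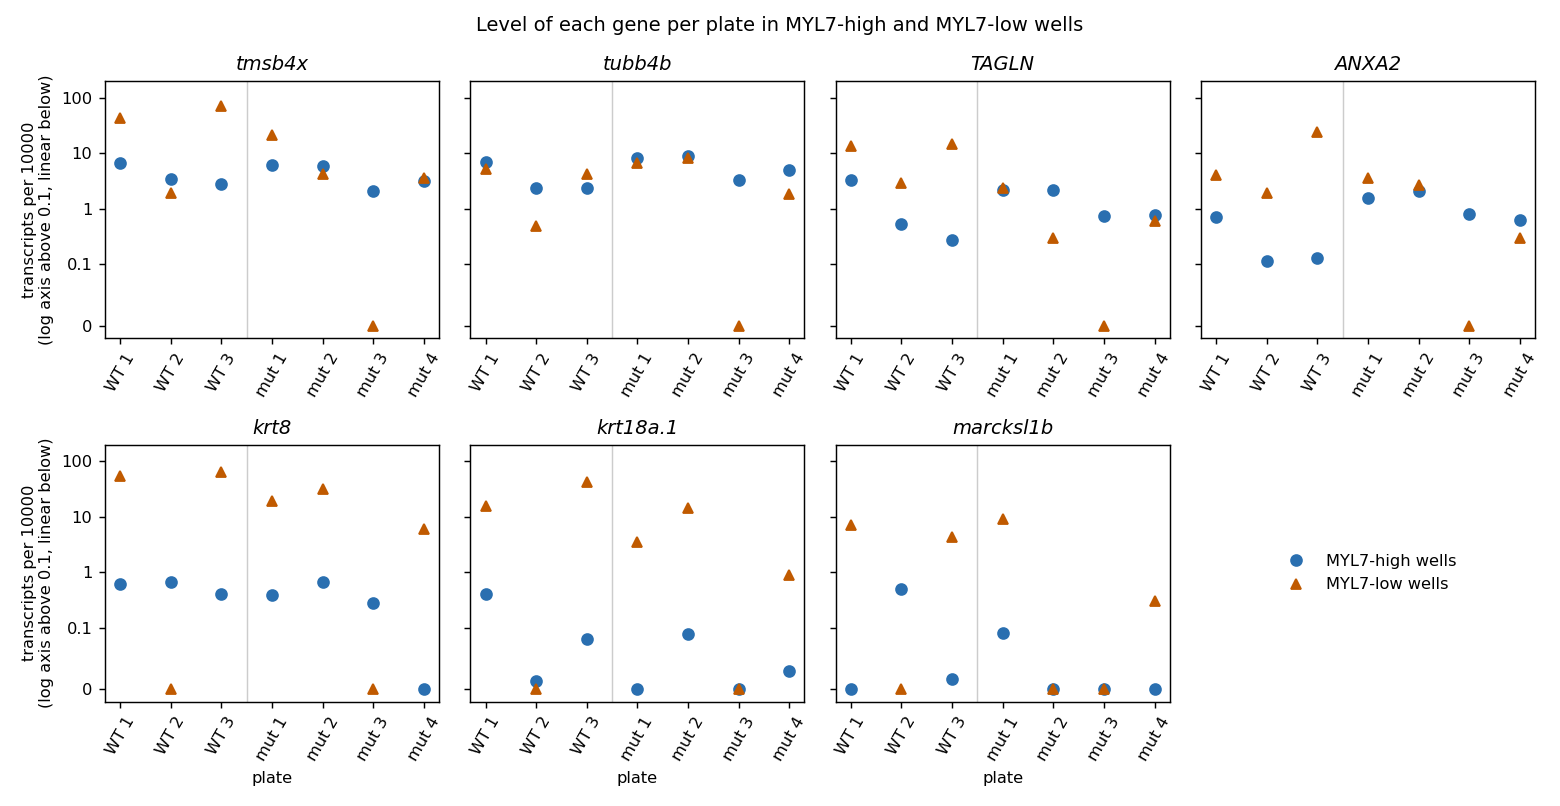
Transcripts per 10000 of each gene on each plate, for MYL7-high wells (circles) and MYL7-low wells (triangles), on an axis that is logarithmic above 0.1 and linear below it. Triangles of krt8 and krt18a.1 lie above the circles on 5 of 7 plates, and those of tubb4b on 1.

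With plate as a block and TMM scaling, edgeR called krt8 (log2 fold change 6.55, SE 0.59, adjusted p = 1.00e-16), ANXA2 (3.24, SE 0.61, adjusted p = 2.15e-05), TAGLN (2.48, SE 0.60, adjusted p = 0.00124) and tmsb4x (2.47, SE 0.47, adjusted p = 2.15e-05) higher in MYL7-low wells. The estimate for tubb4b was 0.62 (SE 0.45, edgeR adjusted p = 0.351), and krt18a.1 and marcksl1b did not pass the filter on low counts. Of 930 genes tested 11.3% were called higher, 9.68% lower and 21% in either direction. These calls depended on the test, on the scaling and on the setting in which wells were weighted equally. An exact sign-flip test over the 7 plates, two-sided, called none of the 7 genes, with p from 0.0625 for the 2 keratins to 0.734 for TAGLN, where 0.0156 is the smallest it can give. With library size as the only scaling, tmsb4x (1.08, edgeR adjusted p = 0.186) and TAGLN (1.16, adjusted p = 0.1795) were no longer called. With wells weighted equally, limma called neither krt8 (2.32, adjusted p = 0.0608) nor ANXA2 (0.69, adjusted p = 0.586), and the estimates of tmsb4x, TAGLN and tubb4b were negative. That setting also left out TMM and used another filter, so these changes cannot be put down to the weights alone. It called far more genes than the main fit, as given with the other settings below. Among them tubb4b was called lower (-2.17, limma adjusted p = 0.0391), whereas with a boundary of 4% MYL7 edgeR called tubb4b higher (0.78, adjusted p = 0.0313).

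For ANXA2, TAGLN and tmsb4x the calls came from the wild-type plates. There edgeR gave 5.97 for ANXA2 (adjusted p = 4.34e-10), 4.62 for TAGLN (adjusted p = 3.02e-08) and 3.58 for tmsb4x (adjusted p = 9.64e-06). Single MYL7-low wells made up much of these sums. On wild-type plate 3, 1 well gave all 128.99 ANXA2, 75.69 of 76.69 TAGLN and 353.81 of 379.88 tmsb4x transcripts. On wild-type plate 1, 1 well gave all 69.58 TAGLN, 16.03 of 21.03 ANXA2 and 86.91 of 222.87 tmsb4x transcripts. On the mutant plates alone none of the 3 was called, with 1.31 for ANXA2 (edgeR adjusted p = 0.26), 0.19 for TAGLN (adjusted p = 0.899) and 1.31 for tmsb4x (adjusted p = 0.163). The keratin gene krt8 was called on the mutant plates (6.39, edgeR adjusted p = 4.60e-14) and did not pass the filter on low counts on the wild-type plates alone, nor without mutant plate 1 or mutant plate 2. Single wells made up much of its MYL7-low sums too, with all 337.49 transcripts on wild-type plate 3 and 266.45 of 275.46 on wild-type plate 1. On mutant plate 2, 1 well gave 105.33 of 108.33, and on mutant plate 1 the richest gave 70.6 of 200.19. At 0 to 0.68 per 10000 in MYL7-high wells, krt8 passed the filter mainly through MYL7-low wells, where it was higher. TAGLN did not pass that filter without mutant plate 1. The difference between genotypes was itself tested as an interaction, given with the genotype comparison, which called no member.

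At an equal depth of 900 transcripts drawn from each well, which left no well out, the classes differed most for the genes of few wells. A krt8 transcript was then found in 2.94% of MYL7-high and 17.3% of MYL7-low wells (5.88 and 18.5% at full depth). For krt18a.1 the shares were 0.420 and 9.88% (1.26 and 11.1% at full depth), and for marcksl1b 0.315 and 8.64% (0.735 and 9.88%). ANXA2 was found in 3.47 and 7.41% (5.04 and 14.8%), and TAGLN in 5.67 and 7.41% (10.4 and 12.3%). For tmsb4x they were 18.8 and 17.3% (33.5 and 29.6%), and for tubb4b 22.9 and 14.8% (41.8 and 25.9%). So tmsb4x was found in like shares of both classes although its summed level differed, and 7 of its 10 richest wells were MYL7-low. At that depth 7 of the 8 MYL7-low wells with krt18a.1 also held krt8, and 6 of the 7 with marcksl1b did. These shares pool wells of all plates and are a description.

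Across ranges of the MYL7 share, the summed level of tmsb4x was lower in each higher range. It was 36.5 per 10000 below 0.5% MYL7, 16.7 from 1 to 2%, 9.95 from 2 to 4%, 3.99 from 4 to 6% and 1.76 at 8% or more. The median plate showed no such steady order, with 5.99, 0.605, 3.49, 3.10 and 2.16 in the same ranges. The highest level of tubb4b, 8.73, was in wells with 2 to 4% MYL7, against 3.11 below 0.5% and 2.69 at 8% or more. On either side of the 2% boundary, between 1 to 2% and 2 to 4% MYL7, krt8 stood at 32 and 1.75 and krt18a.1 at 7.46 and 0.0659. The keratin-rich well of wild-type plate 1, at 1.95% MYL7, gave 266 of the 368 krt8 and 78.7 of the 85.7 krt18a.1 transcripts of the lower of these ranges. The median plate stood at 0 and 0.479 for krt8, the other way round, and at 0 in both ranges for krt18a.1. The summed levels there lay closer for ANXA2, at 4.62 and 2.84, and for TAGLN, at 8.75 and 3.73. Plates varied widely within each range.

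**Figure D3:**
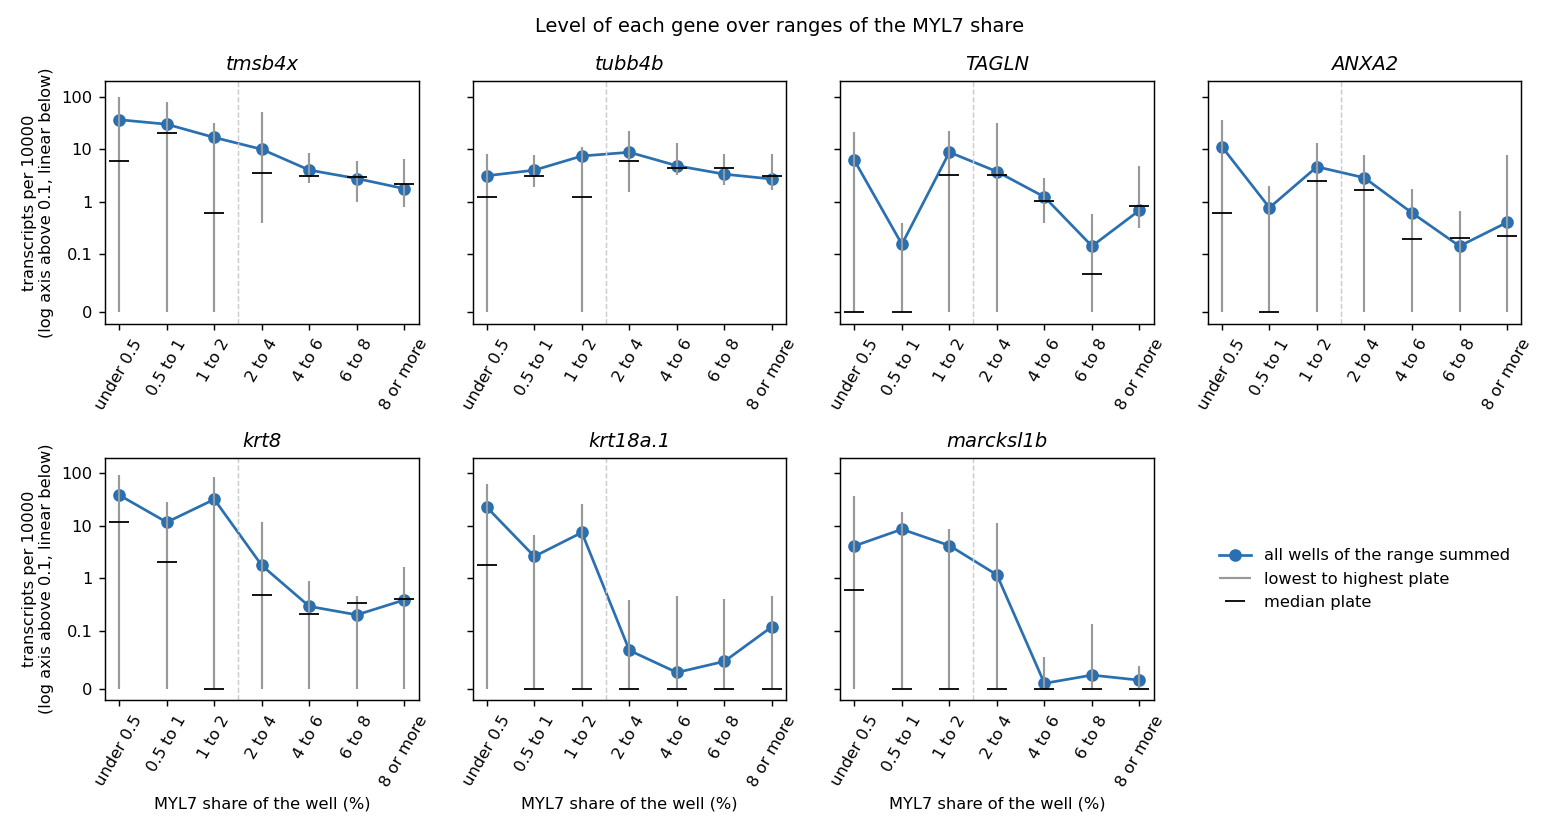
Transcripts per 10000 of each gene over 7 ranges of the MYL7 share of a well, with all wells of a range summed (points and line), the median plate (black tick) and the lowest to highest plate (grey line). The dashed line marks 2% MYL7, the boundary between the classes, where the summed level of krt8 is 32 below and 1.75 above and that of its median plate 0 and 0.479.

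Within MYL7-high wells, the 88 wells with 2 to 4% MYL7 were set against the 864 with more, with plate as a block. ANXA2 was the 1 gene of the 4 tested that was called. It stood at 7.70, 1.36 and 0 per 10000 in wells with 2 to 4% on the wild-type plates and at 1.68, 7.51, 5.50 and 1.46 on the mutant plates. In wells with 4% or more it stood at 0.11, 0.059 and 0.14, and at 1.53, 0.93, 0.55 and 0.14, lower on 6 of 7 plates. The 86.16 ANXA2 transcripts at 2 to 4% MYL7 lay in 11 of the 88 wells. A single well of mutant plate 2 gave 27.09 of them, and the comparison was not repeated without such wells. The log2 fold change was 3.03 (SE 0.58, edgeR adjusted p = 0.00864), where 0.86% of 1047 genes were called higher and 1.91% in either direction. TAGLN (1.95, adjusted p = 0.103), tmsb4x (1.39, adjusted p = 0.252) and tubb4b (0.73, adjusted p = 0.230) did not pass. MYL7 itself differs between these ranges by construction.

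The genotype comparison asked whether loss of hmga1a, a gene for a high mobility group chromatin protein, went with other levels of these genes. ANXA2 was the 1 member called in MYL7-high wells, higher in mutant cells. Its levels of 0.72, 0.11 and 0.13 on the wild-type plates and 1.55, 2.11, 0.82 and 0.63 on the mutant plates overlapped across runs. Within run 1 both mutant plates lay above the wild-type plate, and within run 2 both lay above both wild-type plates. These levels rest on 14.01, 8.0 and 8.0 transcripts on the wild-type plates, in 4, 3 and 6 wells. The mutant plates held 51.03, 47.11, 41.05 and 21.03, in 11, 7, 12 and 5 wells. A single well gave 27.09 of them on mutant plate 2, and 15.03 each on mutant plates 3 and 4. With sequencing run as a covariate the log2 fold change was 1.998 (SE 0.37, edgeR adjusted p = 0.00404). Of the 2156 genes tested 3.2% were called, and 1.76% were called higher in mutant cells. Of the 7 members 5 were tested. ANXA2 passed the filter on low counts mainly through the mutant plates, where it was higher. Without that filter its log2 fold change was 1.96 (edgeR adjusted p = 0.000419), where 76 of 13690 genes were called. The members were chosen with earlier results of these data known, so the ANXA2 call is not that of an unselected gene. The difference was 1.25 within run 1 (adjusted p = 0.164, 1 wild-type plate) and 2.56 within run 2 (adjusted p = 0.00589), both from edgeR. The share of wells with an ANXA2 transcript was 4.35, 1.55 and 3.23% on the wild-type plates and 10.1, 9.09, 7.14 and 3.94% on the mutant plates. At equal depth it was 1.79 ± 1.13% against 5.50 ± 3.19% (SD, n = 3 and 4, exact permutation test, two-sided, p = 0.171, adjusted over 7 genes 0.533).

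MYL7 differed by genotype beside ANXA2. The range of 2 to 4% MYL7, where ANXA2 was higher, held 4, 8 and 7 of the 92, 193 and 186 MYL7-high wells of the wild-type plates and 15, 12, 12 and 30 of the 109, 77, 168 and 127 of the mutant plates. MYL7 was lower in mutant MYL7-high wells (log2 fold change -0.60, edgeR adjusted p = 0.00719), with a median share per plate of 7.97 ± 0.59% against 5.58 ± 0.46%. In wells with at least 4% MYL7 alone, the ANXA2 difference was 2.36 (edgeR adjusted p = 0.0330). With a boundary of 1% it was 1.34 (adjusted p = 0.0749), and without the run covariate 2.30 (adjusted p = 0.0751). Over all kept wells, where 0.506% of 2766 genes were called, 0.253% in each direction, it was -0.17 (edgeR adjusted p = 0.955). Among all kept wells up to 10000 transcripts it was 1.72 (edgeR adjusted p = 0.0158). That setting omits 19 MYL7-high and 5 MYL7-low wells, among them the keratin-rich wells of wild-type plates 1 and 3. The part of any single well was not tested. In MYL7-high wells, leaving out any 1 plate gave values from 1.76 to 2.56, all called. Without each gene's richest well per plate the ANXA2 difference there was 1.998 (edgeR adjusted p = 0.0335). In MYL7-high wells the leukocyte list summed to 0.103 per 10000 on the wild-type plate and 0.546 and 0.135 on the mutant plates of run 1. In run 2 it summed to 1.90 and 0.441 on the wild-type and 0.0398 and 0.0603 on the mutant plates. The epicardium and fibroblast list summed to 1.79 to 2.11 on the wild-type and 1.05 to 1.70 on the mutant plates. The part of these lists in the ANXA2 difference was not tested.

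**Figure D4:**
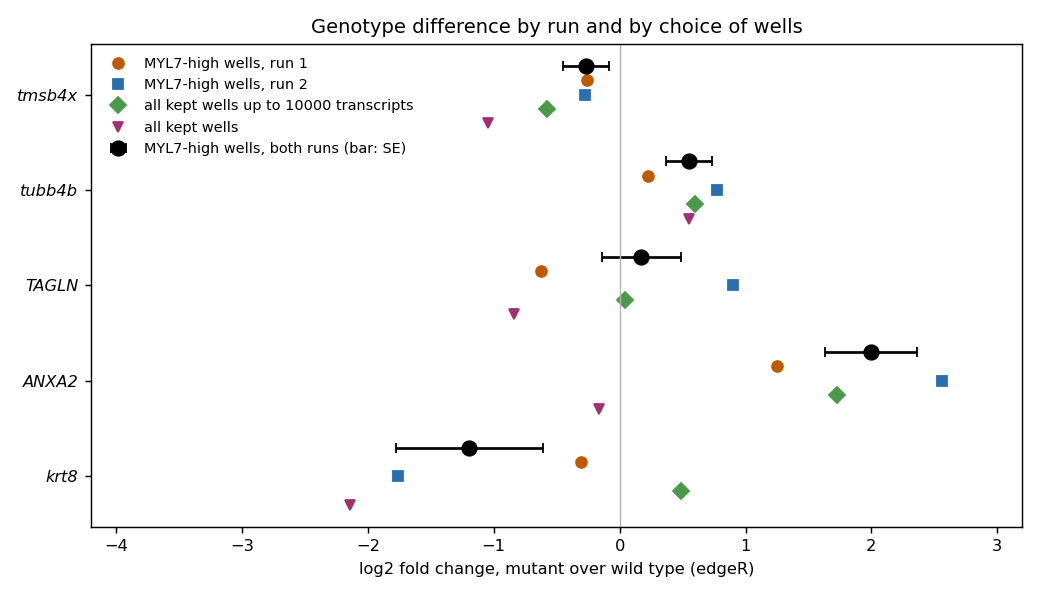
Log2 fold change of mutant over wild-type cells (edgeR) for the 5 genes tested, in MYL7-high wells of both runs (black, bar of 1 SE), of each run alone and over all kept wells with and without those above 10000 transcripts. ANXA2 lies at 1.998 in MYL7-high wells and at -0.17 over all kept wells.

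None of the other members was called by genotype in MYL7-high wells. For tubb4b the levels were 6.93, 2.37 and 2.40 on the wild-type plates and 8.14, 8.89, 3.32 and 4.95 on the mutant plates. Within each run the mutant plates were the higher ones, yet the fold change of 0.55 (SE 0.18, edgeR adjusted p = 0.115) did not pass over all genes. On mutant plate 1 a single well gave 71.61 of 268.72 tubb4b transcripts, against at most 15.03 of 135.11 on wild-type plate 1. Without each gene's richest well per plate the estimate was 0.46 (edgeR adjusted p = 0.185). With wells weighted equally and without TMM, limma gave 0.72 (adjusted p = 0.0395). TAGLN differed by 0.17 (SE 0.31, edgeR adjusted p = 0.854), with -0.62 within run 1 and 0.90 within run 2. The estimate for tmsb4x was -0.27 (SE 0.18, adjusted p = 0.483), and for krt8 -1.19 (SE 0.59, adjusted p = 0.312), both from edgeR. With a boundary of 1% MYL7 the krt8 estimate was -2.34 (edgeR adjusted p = 0.0244), and that class takes in the keratin-rich well of wild-type plate 1. The median of the 5 estimates was 0.17, beside 0.02 over all 2156 genes. With 17 and 39.1 transcripts in all, krt18a.1 and marcksl1b were too rare to test in these wells. At equal depth no member's share of wells could pass 0.05 between genotypes, since the smallest two-sided p that 3 against 4 plates allow is 0.0571. The smallest observed was 0.114, for TAGLN (3.91 ± 1.65% against 8.63 ± 4.19%, exact permutation test). At full depth TAGLN was found in 7.13 ± 1.503% and 14.7 ± 4.77% of wells, and tubb4b in 35.2 ± 2.54% and 49.8 ± 7.43%. Those groups did not overlap and both p were 0.0571 (exact permutation test, adjusted 0.2), but depth differed between plates.

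In MYL7-low wells no gene of 275 tested was called by genotype with edgeR, where 10 had an unadjusted p under 0.05. Estimates there for the members ran from -2.71 for tmsb4x to 0.11 for tubb4b. Whether the genotype difference itself changed with the class of wells was tested as an interaction, in which 0.0549% of 1820 genes and no member were called. The interaction was -4.48 for ANXA2 (SE 1.24, edgeR adjusted p = 0.187) and -4.23 for TAGLN (SE 1.205, adjusted p = 0.205), in the direction of relatively less in mutant MYL7-low wells. Both were called in 4 of 18 other settings. The interaction for tmsb4x was called in 1 of these 18, with a boundary of 4% MYL7 (-3.11, edgeR adjusted p = 5.85e-05), where 6 of 1996 genes were called. Without wells over 10000 transcripts they were -1.71 and -1.37 (edgeR adjusted p = 0.987 for both).

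Levels of most members also went with the sequencing run. Of the 5 tested, 4 were called lower in run 2 within MYL7-high wells, where 1.3% of 2156 genes were called lower and 2.55% in either direction. The tmsb4x levels were 6.76, 6.08 and 5.79 on plates of run 1 and 2.05 to 3.48 on the 4 plates of run 2, without overlap (log2 fold change -1.11, SE 0.18, edgeR adjusted p = 0.00247). For tubb4b they were 6.93 to 8.89 and 2.37 to 4.95, again without overlap (-1.18, SE 0.18, edgeR adjusted p = 0.00144). TAGLN stood at 2.20 to 3.24 and 0.28 to 0.78, the widest separation (-2.08, SE 0.31, edgeR adjusted p = 0.00144). ANXA2 stood at 0.72 to 2.11 and 0.11 to 0.82, with an overlap (-1.57, SE 0.34, edgeR adjusted p = 0.0179). The estimate for krt8 was -0.95 (SE 0.60, edgeR adjusted p = 0.452). Single wells gave much of some of these sums. On wild-type plate 1, 1 well gave 72.63 of 131.65 tmsb4x and 1 well 42.21 of 63.23 TAGLN transcripts. For tmsb4x 1 well gave 67.55 of 200.61 on mutant plate 1 and, in run 2, 92.01 of 245.1 on wild-type plate 2. The comparison of runs was not repeated without these wells. Run 1 held 1 wild-type and 2 mutant plates, and nothing in the labels says whether the runs also differed in hearts or sorting days, so these cannot be told apart.

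**Figure D5:**
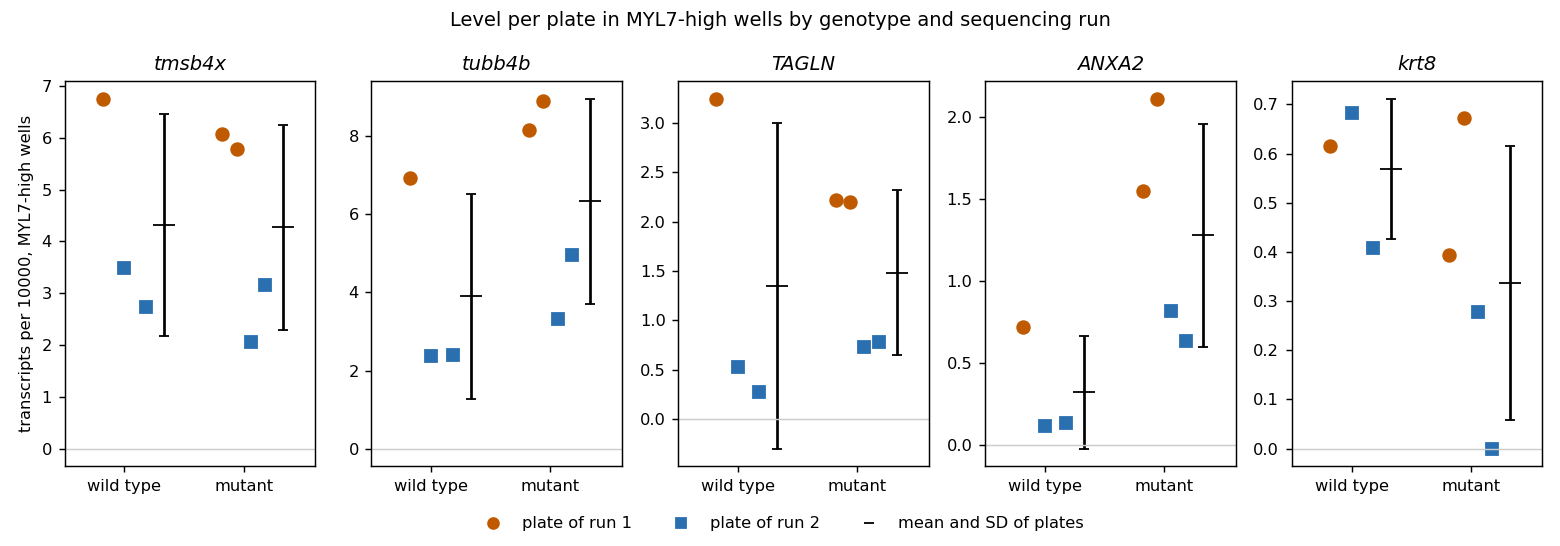
Transcripts per 10000 in MYL7-high wells on each plate for the 5 genes tested, by genotype, with plates of run 1 as circles and of run 2 as squares and the mean and SD over plates of a genotype beside them. For tmsb4x, tubb4b and TAGLN every circle lies above every square in both genotypes, and for ANXA2 the mutant plates lie above the wild-type plates within each run. On wild-type plate 1, single wells gave much of the tmsb4x and TAGLN sums.

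Some other genes moved with the run too. The smooth muscle and mural list, without TAGLN (ENSDARG00000045408), summed to between 4.34 and 5.47 per 10000 in MYL7-high wells of run 1 and to between 0.835 and 1.80 in run 2. Of the 658 transcripts, 651 came from acta2, the smooth muscle actin gene, which was lower in run 2 by -2.01 on the log2 scale (edgeR adjusted p = 4.43e-05). The other genes of that list were near 0 in MYL7-high wells, where 4 of the 7 genes matched were detected. Over all these wells there were 3.0 transcripts of the calponin gene CNN1, 3.0 of the second TAGLN gene (ENSDARG00000033466) and 1.0 of MYH11. Of the dedifferentiation and border zone list, 2 of 17 tested were lower in run 2, acta2 and the integrin gene ITGA5 (-3.05, edgeR adjusted p = 0.0162). ACTA1 (ENSDARG00000055618), a skeletal-type actin gene, was higher (0.82, adjusted p = 0.00375). Of 21 genes of actin and its regulators acta2 was the only 1 called. None of 11 tubulin and microtubule, 3 intermediate filament or 6 annexin and S100 genes was called. Over all 2156 genes 1.25% were called higher and 1.3% lower. The median mitochondrial share was 1.204, 2.09 and 2.25% on plates of run 1 and 1.09 to 1.32% in run 2. The part of these measures in the run difference was not tested.

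Over the 7 plates, the genes whose levels in MYL7-high wells were most like a member's are given as a description, with Pearson's r of log2 values among 2155 genes. They share plate depth and run. For tubb4b these were ACTC1 (ENSDARG00000057911, r = 0.98), a cardiac-type actin gene, and AK4, an adenylate kinase gene (r = 0.979). For TAGLN they were uba1, the ubiquitin-activating enzyme gene (r = 0.991), and slc35a4 (r = 0.974). For ANXA2 they were FLII (r = 0.989), which encodes an actin-remodelling protein of the gelsolin family, and ppiaa (r = 0.98), a cyclophilin gene. For tmsb4x they were ENSDARG00000069699 (r = 0.964) and RBX1 (r = 0.95), a ubiquitin ligase subunit gene, and for krt8 wwp2 (r = 0.983), a ubiquitin ligase gene, and DCUN1D2 (r = 0.982). Among the members themselves, tubb4b had r = 0.922 with TAGLN, 0.903 with ANXA2 and 0.804 with tmsb4x, whereas krt8 had between -0.06 and 0.33 with the other 4.

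Of 5 lists of related genes that are not members, 2 held genes called by genotype in MYL7-high wells, 1 of 6 annexin and S100 genes and 5 of 17 dedifferentiation and border zone genes. The lists were chosen with earlier results of these data known. Of 21 genes of actin and its regulators tested, none was called. Their most abundant were tpm4a, a tropomyosin gene, at 139.3 ± 4.07 and 147.7 ± 9.94 per 10000 in wild-type and mutant plates, and the beta-actin gene actb2 at 10.96 ± 0.31 and 13.2 ± 1.42. Both genes listed as MYL9, a regulatory light chain of non-muscle and smooth muscle myosin, were next after tpm4a, with ENSDARG00000008030 at 24.4 ± 1.55 and 21.7 ± 2.51 and ENSDARG00000038123 at 14.7 ± 4.06 and 14.7 ± 2.54. None of 11 tubulin and microtubule genes was called either, the most abundant being tuba1b at 5.13 ± 0.92 and 5.77 ± 1.36, tuba8l2 at 3.73 ± 0.41 and 4.71 ± 0.70, tuba5 at 1.18 ± 0.54 and 1.90 ± 1.05, and MAP1LC3A at 1.496 ± 0.27 and 1.48 ± 0.24. The 3 genes tested of the intermediate filament list, synm, plecb and JUP (ENSDARG00000070787), were not called, with estimates of 0.70, 0.43 and 0.76. That list also takes in genes of linker and junction proteins, here plecb and JUP.

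Of 6 other annexin and S100 genes tested, anxa13 was higher in mutant cells, at 0.70 ± 0.24 against 1.67 ± 0.32 per 10000 (log2 fold change 1.1, edgeR adjusted p = 0.0415). All 6 estimates were positive, with a median of 0.56 beside 0.02 over all genes, and ANXA6 (0.56) and the 2 genes listed as ANXA11 (0.48 for ENSDARG00000002632 and 0.36 for ENSDARG00000077383) did not pass. Of 17 dedifferentiation and border zone genes tested, 4 were higher and 1 lower. The higher ones were xirp1, a gene for a protein of the intercalated disc (ENSDARG00000030722, 1.07), the small heat shock protein gene HSPB8 (1.07), ACTA1 (ENSDARG00000036371, 0.97) and the myoglobin gene mb (0.44). The lower one was HAND2, a cardiac transcription factor gene (-1.53). Their edgeR adjusted p lay between 0.00719 and 0.0466, and the background is the 3.2% given for this comparison. As the list was chosen with earlier results of these data known, its share of calls is no independent test against that background. Of the 5 genes called from that list, mb encodes the oxygen-binding protein of mature muscle. Of the 2 genes listed as ACTA1, the called one stood at 5.38 ± 1.35 and 10.7 ± 2.01 per 10000 in wild-type and mutant plates. The more abundant one, ENSDARG00000055618, stood at 88.1 ± 18.03 and 65.7 ± 24.6 and was not called.

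Between the classes of wells, the same lists gave calls that share the limits given above for that comparison. Over all 930 genes tested there, 11.3% were called higher, 9.68% lower and 21% in either direction. The counts below were not tested against these shares. Of 15 actin genes tested, 4 were higher in MYL7-low wells, namely actb1 (3.53), actb2 (2.41), the profilin gene pfn1 (2.02) and MSN (1.74), the moesin gene, and tpm4a (-1.21) and acta2 (-2.47) were lower. Of 6 tubulin genes tuba8l4 (1.85) and tuba5 (1.69) were higher, while tuba1b (-0.06) and tuba8l2 (-0.45) did not pass. Of 2 genes tested of the intermediate filament list plecb, a plectin gene, was higher (2.28). Neither annexin gene tested passed, anxa13 (1.44) or ANXA6 (-0.03). Their levels in MYL7-high and MYL7-low wells were 1.25 ± 0.58 and 1.80 ± 2.09 for anxa13, and 1.62 ± 0.49 and 0.68 ± 0.58 for ANXA6. Of 14 dedifferentiation genes HSPB8 (2.11) and xirp1 (1.84) were higher and mb (-1.86), ACTA1 (ENSDARG00000055618, -1.57) and acta2 lower. With library size as the only scaling, 416 of 930 genes were called lower and 26 higher, against 90 and 105 with TMM, where the median over all genes moved from -0.28 to -1.45.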

How the data were processed

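Single cells were profiled by CEL-seq2 on 7 plates, per the labels. The deposited values are expected counts of transcripts per gene and well, which the authors corrected for saturation of molecular identifiers: all 857630 values above 0 matched that formula for 4096 identifiers within 0.0051, although the labels' protocol gives identifiers of 4 bases. BWA 0.6.2 was used, per the submitters' processing notes. For the genome build, and for reads shared by close relatives such as tubulin or keratin genes, the answer is not given in the sources. The members and gene lists were chosen with earlier results of these data known. Wells needed 1000 transcripts outside spike-in and mitochondrial genes. No doublet caller was run. All plates use the same 384 well barcodes.

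Expected counts were summed per plate and well class and rounded to whole numbers. They were tested with edgeR 4.0.16 (quasi-likelihood, TMM, filterByExpr, Benjamini-Hochberg threshold 0.05) in R 4.3.3, with run or plate as covariate, and SE from the F statistic. DESeq2 1.42.0, limma 3.58.1 and other settings were alternatives, and the procedure was tested on simulated data. The comparison of runs, the comparison within MYL7-high wells, the genotype comparison in MYL7-low wells and the sign-flip test (on log2(level + 0.1)) were added after the data had been seen. A run is the flow cell named in the deposited files. Intervals and limits cover counting error only, with 3 counts as the limit of a count of 0. Named genes were all members, list genes past the test or else the most abundant up to 4 in a list, and the 2 genes most correlated with each member over plates. Plates carry no number in the labels that pairs them across genotypes. Depth per plate was 280361 to 774838 transcripts. Sequences were not analysed here.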

Additional observations from a re-analysis of the deposited data

Results flagged for a closer look

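ANXA2 was also seen in wells below the 1000-transcript minimum, outside the kept wells. Summed over those wells it stood at 1.603 per 10000 on the mutant plates, from 29 transcripts, with a range of 1.30 to 2.53 over 4 plates. The wild-type plates held 2.0 transcripts there, with levels of 0 to 0.19 over 3 plates. The plates are the same ones as in the genotype comparison. With the minimum at 500 transcripts, which takes in part of these wells, the ANXA2 difference in MYL7-high wells was 2.25 (edgeR adjusted p = 0.000866).

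On mutant plate 1, marcksl1b stood at 9.31 per 10000 in MYL7-low wells, where the other mutant plates held at most 0.30. In MYL7-high wells it stood at 0.0909, where the others held 0. The counts of 0 on mutant plates 2, 3 and 4 allow 0.135, 0.0597 and 0.0904. The level on mutant plate 1 lies above the limits of mutant plates 3 and 4 and below that of mutant plate 2. As it rests on only 3.0 transcripts, no difference is read from it. For normally distributed values a plate stands this far out in about 1 in 20 groups by chance, and 14 groups were looked at. That rate does not hold for counts this sparse. Where the other plates are all at 0, any count above 0 is flagged, whatever its level.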

How the results depend on the processing

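Counts and signs depended on the processing as follows, and the cause was not tested. In MYL7-high wells edgeR called 69 genes by genotype, against 44 with 2000 transcripts per well, 40 with a boundary of 1% MYL7, 37 without the run covariate, 14 over all kept wells and 33 over those up to 10000 transcripts. Leaving out 1 plate gave 36 (wild-type plate 1) to 65. Estimates of tmsb4x turned to 0.14 with 2000 transcripts per well, 0.35 with 4% MYL7 and 0.23 without each gene's richest wells. Those of TAGLN turned to -0.15 with 2000 transcripts, -0.31 with 1% MYL7, -0.62 in run 1 alone and -0.84 over all kept wells, with -0.12 to 0.90 when 1 plate was left out (negative without wild-type plate 3). ANXA2 turned to -0.17 over all kept wells and krt8 to 0.49 over those up to 10000 transcripts.

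Between classes 195 genes were called, against 1835 without a filter, 314 without the plate term, 80 on wild-type plates, 109 on mutant plates, 442 by library size, 105 without wells over 10000 transcripts and 1180 with wells weighted equally, and 117 (without mutant plate 1) to 229 when 1 plate was left out. The calls of tmsb4x, TAGLN and ANXA2 were lost without a filter and on mutant plates alone. Equal weights without TMM gave -0.41 for tmsb4x, -0.45 for TAGLN and -2.17 for tubb4b, which was also -1.50 without a filter and -0.56 by library size. Genes below the filter have no value: krt8, TAGLN and ANXA2 with 2000 transcripts per well and without each gene's richest wells, krt8 and TAGLN without wells over 10000 transcripts and without mutant plate 1, TAGLN with 1% MYL7, and krt8 without mutant plate 2, on wild-type plates alone and with observed identifiers. So krt8 has a value in 17 and TAGLN in 19 of 24 alternatives.

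The interaction called 1 gene, against 4 with RLE, 3 with 500 and 0 with 2000 transcripts per well, 0 with 1% and 6 with 4% MYL7, 0 without a filter, 0 without wells over 10000 transcripts and 0 to 3 when 1 plate was left out. Its signs turned for krt8 (-0.61 with 500 and -0.0084 with 2000 transcripts, -1.38 with 4% MYL7, -1.11 to 1.78 by plate), krt18a.1 (-0.64 with 500 transcripts, -0.64 with 4% MYL7, -0.69 to 2.33 by plate), tubb4b (0.035 with 2000 transcripts, 0.78 with 4% MYL7, 0.0026 without wells over 10000, -0.76 to 0.21 by plate) and marcksl1b (-1.43 with DESeq2, -2.20 with 1% and -0.52 with 4% MYL7, -1.54 to 2.56 by plate).

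Differences in the thinned share of wells, in percentage points, turned for krt8 (0.732 without thinning, 1.27 with another seed, -2.14 to 0.0567 by plate), marcksl1b (-0.0093 without thinning, -0.173 to 0.459 by plate), krt18a.1 (-1.43 to 0.197) and tmsb4x (-1.02 to 5.62). With 3 against 4 plates no share could pass 0.05 in any of them. No paired analysis was possible because the plates carry no shared number in the labels. Rare genes are limited by depth: 3 transcripts equal 0.0426 to 0.154 per 10000 in MYL7-high and 0.286 to 2.32 in MYL7-low wells.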
